A study of Mus musculus with 2 samples.

Results

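Endothelial cells are held together by adherens, tight and gap junctions. Followed here were 10 genes of these junctions: Cdh5, Pecam1, Esam, F11r, Jam2, Jam3, Cldn5, Tjp1, Gja1 and Gja5. They were chosen by name from the 23521 genes of the tables, with earlier results of these data known. All 10 were listed for both libraries. The cells came from FVB/N mice that carry a Prox1-GFP reporter, in which the promoter of Prox1, a transcription factor of lymphatic endothelium, drives a green fluorescent protein. The afferent lymphatic vessels that drain to the submandibular lymph nodes, part of the superficial cervical lymphatic system, were taken from 6 aged mice (93 weeks) and 6 adult mice (12 weeks). Cells were sorted by flow cytometry, with a gate that is not given in the sources used here, and captured in droplets (10x Genomics 3' chemistry). Each age gave 1 library pooled over its 6 mice, with no mark of the animal on a cell. There was therefore 1 sample per age and no test between ages.

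In an adherens junction, cadherins of neighbouring cells bind each other and are tied to actin inside the cell. Claudins and junctional adhesion molecules seal or flank the contact as part of tight junctions, and scaffold proteins bind their tails. Connexins form gap junction channels through which small molecules and current pass between cells. Initial lymphatic capillaries are known for discontinuous button-like junctions through which fluid enters, and collecting lymphatic vessels for continuous zipper-like ones.

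The aged table held 13969 cells, of which 6977 carried a barcode of the adult table, with a median of 0.506 times as many UMIs (unique molecular identifiers, which count captured transcripts) as the same cells there. These were 95.5% of the adult cells, and they were counted once, as adult. That left 6992 aged cells with 83509101 UMIs and 7308 adult cells with 90875406 UMIs. Median depth was 11663.5 UMIs per cell in the aged library and 12087.5 in the adult library. The aged table gives no gene names, so each of its rows took the name at the same position in the adult table. In the cells found in both tables each of the 10 genes matched its own row best. Most cells were fibroblast-like, with 6218 aged and 6043 adult cells, although the sample labels name the lymphatic system. The lymphatic endothelial-like class held 95 aged and 274 adult cells, the blood endothelial-like class 415 and 627, and the smooth muscle-like class 190 and 225. Levels are given as counts-per-million values (CPM), the UMIs of a gene over all UMIs summed across the cells of a group, with exact 95% Poisson intervals that cover counting error only. UMIs were captured near the 3' end of transcripts and the tables give no lengths, so levels of different genes are not ranked against each other.

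The cell groups were named from markers that did not include the 10 genes. Venous-like cells (288 aged, 364 adult) held all 7 venous markers, with von Willebrand factor (Vwf) at 2488 CPM in aged cells and 2692 CPM in adult cells. They also carried Prox1 at 2418 and 2422 CPM and the reporter eGFP at 3498 and 2736 CPM, against 20370 and 21440 CPM of Prox1 in lymphatic collecting-like cells. The Prox1 of these cells goes against a plain reading of their name. The lymphatic receptor gene Flt4 stood at 17.4 and 25.1 CPM in them, against 1163 and 905 CPM in lymphatic capillary-like cells. Pdgfra and the leukocyte gene Ptprc were at or near 0 in the endothelial subtypes: Ptprc had no UMI in any of them, and Pdgfra reached 21.1 CPM at most. The fibroblast gene Dcn was not: venous-like cells held 280 CPM in the aged and 421 CPM in the adult library. Lymphatic collecting-like cells held 326.5 and 219 CPM of Dcn and arterial-like cells 69.0 and 102 CPM, against 14760 and 15170 CPM in fibroblast-like cells. The other subtypes were blood capillary-like (80 aged, 187 adult), lymphatic collecting-like (32, 103), lymphatic capillary-like (21, 98) and arterial-like cells (38, 63), and a lymphatic group led by Ptprt and Ackr4 (21, 56). A lymphatic group led by Neo1 and Tmem108 held 21 aged and 17 adult cells. A further 9 aged and 13 adult blood capillary-like cells led by Timp4 and Car4 count in the blood endothelial class but are too few to be described alone.

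The RefSeq table of promoters held 5 of the 10. The 3 printed here belong to claudin-5 and both connexins, whose levels differ widely between endothelial subtypes in what follows. Each window covers the 250 bases before the RefSeq start on the plus strand of GRCm38.p6. Capitals mark matches on either strand to GGAAG, a form of the ETS factor site called the ETS core here. They also mark the box bound by nuclear factor Y, spelled CCAAT. Other forms of the ETS site are not marked. ACAAT, a form of the SOX factor site called the SOX core here, was searched too and is in none of the 3. No marked match overlaps another.
Cldn5, chr16:18776597-18776846: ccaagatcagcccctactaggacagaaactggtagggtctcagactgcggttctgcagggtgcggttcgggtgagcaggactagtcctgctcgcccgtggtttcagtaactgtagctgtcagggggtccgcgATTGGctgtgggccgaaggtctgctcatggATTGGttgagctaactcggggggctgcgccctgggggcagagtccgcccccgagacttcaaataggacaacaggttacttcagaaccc
Gja5, chr3:97032152-97032401: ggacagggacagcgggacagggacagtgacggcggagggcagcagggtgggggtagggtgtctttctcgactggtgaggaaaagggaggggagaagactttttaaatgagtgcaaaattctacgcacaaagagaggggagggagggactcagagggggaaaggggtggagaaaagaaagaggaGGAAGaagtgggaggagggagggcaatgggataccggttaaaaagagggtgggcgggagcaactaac
Gja1, chr10:56377050-56377299: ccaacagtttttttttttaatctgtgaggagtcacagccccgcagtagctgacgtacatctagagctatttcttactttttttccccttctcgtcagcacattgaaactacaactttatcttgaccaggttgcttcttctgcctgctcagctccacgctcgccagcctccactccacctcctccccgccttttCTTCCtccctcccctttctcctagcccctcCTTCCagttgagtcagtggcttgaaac
The Cldn5 window holds the nuclear factor Y box 2 times and no ETS core, the Gja5 window 1 ETS core and the Gja1 window 2. Of all 32536 promoters in the table, 64.1% hold the ETS core, 33.8% the nuclear factor Y box and 27.4% the SOX core in a window of the same length. A match describes the letters only.

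Across classes, 7 of the 9 genes that could be compared were at least 2-fold higher in endothelial-like than in fibroblast-like cells in both libraries: Cdh5, Pecam1, Esam, F11r, Jam2, Cldn5 and Tjp1. Of 8645 genes measured in the same comparison, 12.8% were. The members were chosen as junction genes of endothelium, so the count of 7 is a description and not a test. Jam3 and Gja1 were in neither direction, and Gja5 was found in under 10% of the cells of either class. Of the other 51 junction genes in the tables, 27 were measured in this comparison, 18 of them higher in endothelial-like cells, 4 lower and 5 in neither direction. Smooth muscle-like cells shared Esam, Jam3 and Tjp1 with other classes and held few UMIs of the rest.

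In the lymphatic over blood comparison, 1 of the 8 members measured was at least 2-fold higher in both libraries (Cldn5) and 3 were at least 2-fold lower (Pecam1, Esam and Jam2), beside 3.67% of 6655 genes higher and 5.79% lower. Of the other junction genes 26 were measured there, 5 of them higher, 3 lower and 18 in neither direction.

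**Figure D1:**
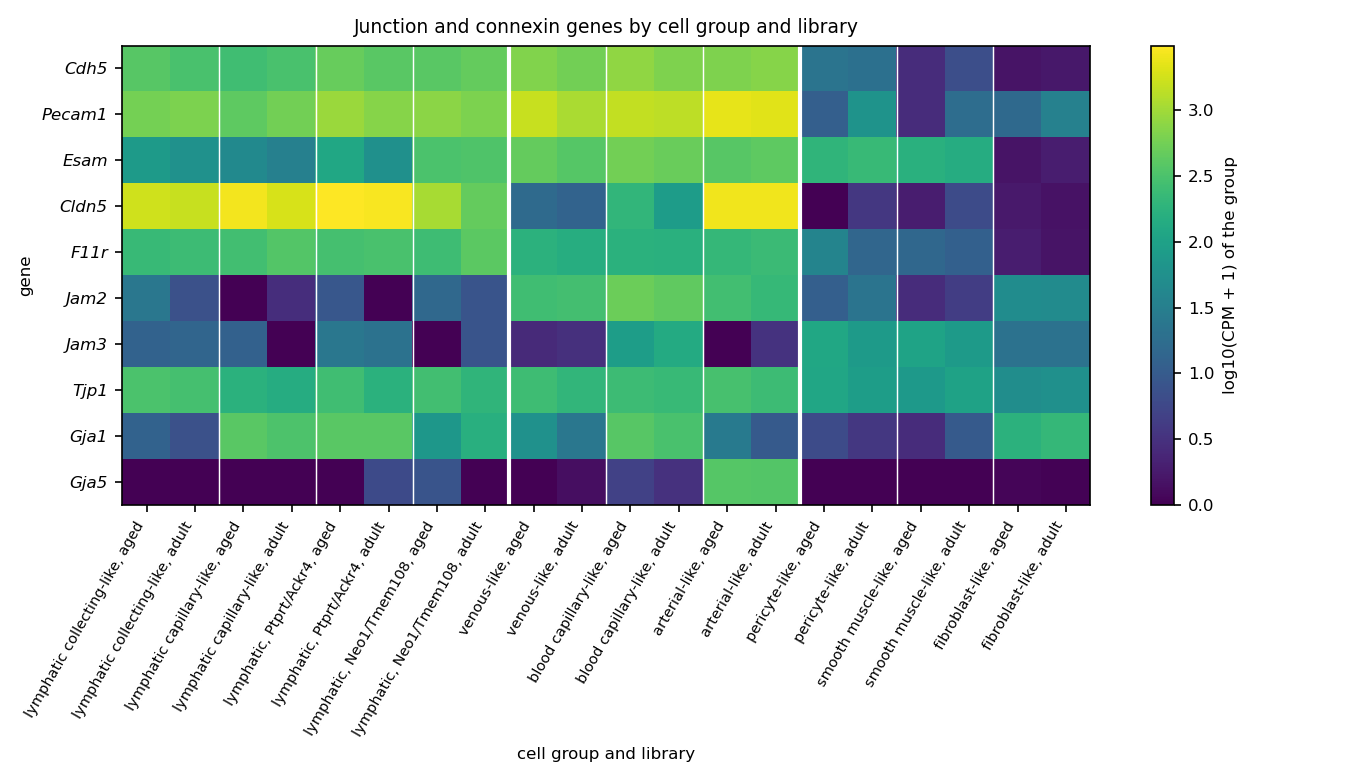
Level of the 10 genes, as log10(CPM + 1), in 10 cell groups (columns), the aged library left of the adult library within each group. Cdh5 and Pecam1 are bright across the endothelial columns, Gja5 is brightest in the arterial-like ones, and Cldn5 is dark in the venous-like ones.

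Cdh5, VE-cadherin, the cadherin of endothelial adherens junctions (chr8:104101625-104144511 in GRCm38), was almost confined to endothelial-like cells among the 3 kinds of cell described here. It stood at 652 CPM in aged and 546 CPM in adult endothelial-like cells, against 0.548 and 0.675 CPM in fibroblast-like cells. That is a 1190-fold difference in the aged library (interval 880 to 1649) and an 809-fold one in the adult library (620 to 1076). Every endothelial subtype held Cdh5. Over the 7 larger subtypes, aged cells ran from 260 CPM (165 to 390) in lymphatic capillary-like to 823 CPM (748 to 904) in blood capillary-like cells. Adult cells ran from 304 CPM (259 to 355) in lymphatic capillary-like to 730 CPM (653 to 813) in arterial-like cells. Lymphatic subtypes were thus at the low end in both libraries, and neighbours in the order had overlapping intervals, except venous-like and blood capillary-like cells in both libraries. Lymphatic over blood endothelial-like cells the fold was 0.552 (0.476 to 0.638) in the aged library and 0.558 (0.510 to 0.609) in the adult library. In smooth muscle-like cells only 2 aged and 9 adult UMIs of Cdh5 were counted.

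Pecam1, the homophilic adhesion molecule at endothelial contacts (chr11:106654217-106750628), was high in every endothelial subtype but was also found in some fibroblast-like cells. Arterial-like cells held the highest level, 2308 CPM (2117 to 2512) in the aged and 2206 CPM (2072 to 2348) in the adult library. Lymphatic capillary-like cells held 418 CPM (294 to 576) and 556 CPM (495 to 623), the lowest of the 7 subtypes with over 15 cells per library. Collecting-like cells held 579 and 646 CPM, with a capillary over collecting log2 difference of −0.47 (−1.05 to 0.09) and −0.22 (−0.44 to 0.00). Lymphatic endothelial-like cells as a class had 0.422 times the Pecam1 of blood endothelial-like cells in the aged library (0.378 to 0.469) and 0.483 times in the adult library (0.453 to 0.516). In fibroblast-like cells Pecam1 stood at 14.4 CPM in the aged and 32.9 CPM in the adult library, which left an endothelial excess of 102-fold (95.8 to 109) and 34.5-fold (33.0 to 36.1).

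Of the other immunoglobulin-type adhesion genes, Esam and Jam2 were lower in lymphatic than in blood endothelial-like cells. Esam (chr9:37528078-37538319), an adhesion molecule of endothelial tight junctions and platelets, was at 148 CPM in aged and 72.1 CPM in adult lymphatic endothelial-like cells, against 477 and 420 CPM in blood endothelial-like cells. Its lowest values were in lymphatic capillary-like cells, 45.2 CPM from 4 UMIs in the aged and 31.9 CPM from 17 UMIs in the adult library. The lymphatic group led by Neo1 and Tmem108 stood apart with 323 CPM (236 to 431) and 336 CPM (247 to 447), with intervals that overlap those of arterial-like cells at 384 and 418 CPM. Those cells held no UMI of the smooth muscle genes Myh11 and Actg2 in either library. Their other muscle markers and their pericyte markers are not given here, and the source of their Esam was not tested. Among 21 aged and 17 adult cells, 5 of 7 lymphatic valve markers were in at least 10% of the aged cells and 6 of 7 in the adult cells. The leading gene Neo1 is itself 1 of those 7 markers. Esam was also a gene of the vessel wall: smooth muscle-like cells held 164 CPM (141 to 190) and 144 CPM (125 to 164). Within muscle, the Rgs5-high subgroup had 201 and 186 CPM and pericyte-like cells 194 and 222 CPM. In fibroblast-like cells it was at 0.535 and 0.933 CPM, so that muscle exceeded fibroblasts 306-fold (218 to 439) in the aged library and 154-fold (118 to 203) in the adult library.

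F11r, junctional adhesion molecule A (chr1:171437535-171464603), was found in every endothelial subtype. Its levels in the 7 larger subtypes ran from 171 to 291 CPM in the aged library, between blood capillary-like cells and the group led by Ptprt and Ackr4. In the adult library they ran from 149 CPM in venous-like cells to 415 CPM (315 to 536) in the group led by Neo1 and Tmem108. Lymphatic cells held more than blood cells, 1.42-fold (1.17 to 1.72) in the aged and 1.91-fold (1.71 to 2.14) in the adult library, short of 2-fold. Fibroblast-like cells were at 0.892 and 0.528 CPM and smooth muscle-like cells at 13.5 and 10.7 CPM.

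Jam2, junctional adhesion molecule B (chr16:84774123-84825928), was nearly absent from lymphatic cells. Blood endothelial-like cells held 319 CPM (298 to 341) in the aged and 325 CPM (309 to 342) in the adult library. Lymphatic endothelial-like cells held 7 UMIs in the aged library, 13.1 CPM (5.29 to 27.1), and 6 UMIs in the adult library, 3.52 CPM (1.29 to 7.65). The lymphatic to blood fold was 0.0413 (0.0165 to 0.0854) and 0.0108 (0.00396 to 0.0236). Of the 3 larger blood subtypes, blood capillary-like cells held most, 519 CPM (459 to 584) and 443 CPM (409 to 479). Venous-like cells, which carry Prox1, held 261 and 282 CPM, on the side of the blood subtypes. Fibroblast-like cells also transcribed Jam2, at 49.8 and 47.0 CPM, with a UMI in 36.6% of aged and 37.2% of adult cells, and smooth muscle-like cells had 2 and 5 UMIs.

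Jam3, junctional adhesion molecule C (chr9:27097384-27155421), had a different map. In endothelium it was concentrated in blood capillary-like cells, with 86.5 CPM (63.3 to 115) in the aged and 137 CPM (118 to 157) in the adult library. The smaller blood capillary-like group led by Timp4 and Car4 had 3 UMIs among only 9 aged cells and 5 among 13 adult cells, which is not a low level. Venous-like cells had 3 UMIs among 288 aged cells and 6 among 364 adult cells, and arterial-like cells had none in the aged and 1 in the adult library. A count of 0 in aged arterial-like cells allows up to 12.9 CPM. Muscle was the class with most Jam3: smooth muscle-like cells held 104 CPM (86.3 to 125) and 79.9 CPM (66.2 to 95.5), and pericyte-like cells 120 and 79.2 CPM. Fibroblast-like cells were at 19.9 CPM in both libraries, so muscle exceeded them 5.24-fold (4.30 to 6.33) in the aged and 4.01-fold (3.31 to 4.83) in the adult library.

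Cldn5, claudin-5, the main claudin of endothelial tight junctions (chr16:18776847-18778262), was high in 1 blood subtype and nearly absent from another. Arterial-like cells held 2649 CPM (2444 to 2867) in the aged and 2646 CPM (2498 to 2800) in the adult library. Venous-like cells held 15.3 CPM (10.2 to 21.9) and 11.9 CPM (8.28 to 16.5). On the log2(CPM + 1) scale the arterial over venous difference was 7.35 (6.90 to 8.03) in the aged and 7.68 (7.31 to 8.33) in the adult library. Even the venous-like UMIs came from few cells: in the aged library 24 of 29 came from 1 cell, and in the adult library 5 cells held 31 of 35. Cells were thinned to 4431 UMIs, and those with fewer were left out, among them 53 aged and 34 adult venous-like cells. Of the rest, 0.851% of aged and 1.21% of adult venous-like cells had a Cldn5 UMI, against 100% and 97.9% of arterial-like cells. In fibroblast-like cells, which should lack it, the thinned shares were 0.185% and 0.172%. Without thinning, 1.39% and 2.20% of venous-like cells had one.

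Lymphatic subtypes were the other high group for Cldn5. The cells led by Ptprt and Ackr4 held 3119 CPM (2820 to 3442) in the aged and 2902 CPM (2738 to 3074) in the adult library, followed by capillary-like cells at 2732 and 1901 CPM. Collecting-like cells held 1759 CPM (1567 to 1967) and 1581 CPM (1484 to 1682). Cells led by Neo1 and Tmem108 were lowest of the lymphatic groups, at 1081 CPM (917 to 1266) and 472 CPM (365 to 600). As a class, lymphatic cells exceeded blood cells 6.70-fold (6.11 to 7.34) in the aged and 6.61-fold (6.21 to 7.05) in the adult library. Blood capillary-like cells, at 199 and 84.3 CPM, again rested on few cells, since 5 cells held 88 of 106 aged UMIs and 94 of 119 adult UMIs. The 9 aged and 13 adult blood capillary-like cells led by Timp4 and Car4 held 2577 and 807 CPM.

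Tjp1, the zonula occludens scaffold that links tight junction proteins to actin (chr7:65296165-65527781), was measured in all 4 classes. Endothelial-like cells held 259 and 213 CPM, smooth muscle-like cells 76.5 and 102 CPM, and fibroblast-like cells 50.03 and 56.5 CPM. The endothelial excess over fibroblasts was 5.18-fold (4.80 to 5.59) in the aged and 3.78-fold (3.56 to 4.02) in the adult library. Lymphatic and blood endothelium did not separate, with folds of 1.04 (0.865 to 1.25) and 0.973 (0.861 to 1.10). Within lymphatic cells, however, capillary-like cells held 169 CPM (94.8 to 279) and 145 CPM (114 to 181), against 321 CPM (242 to 417) and 292 CPM (251 to 337) in collecting-like cells. The capillary over collecting log2 difference was −0.92 (−1.85 to −0.08) in the aged and −1.01 (−1.41 to −0.62) in the adult library.

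**Figure D2:**
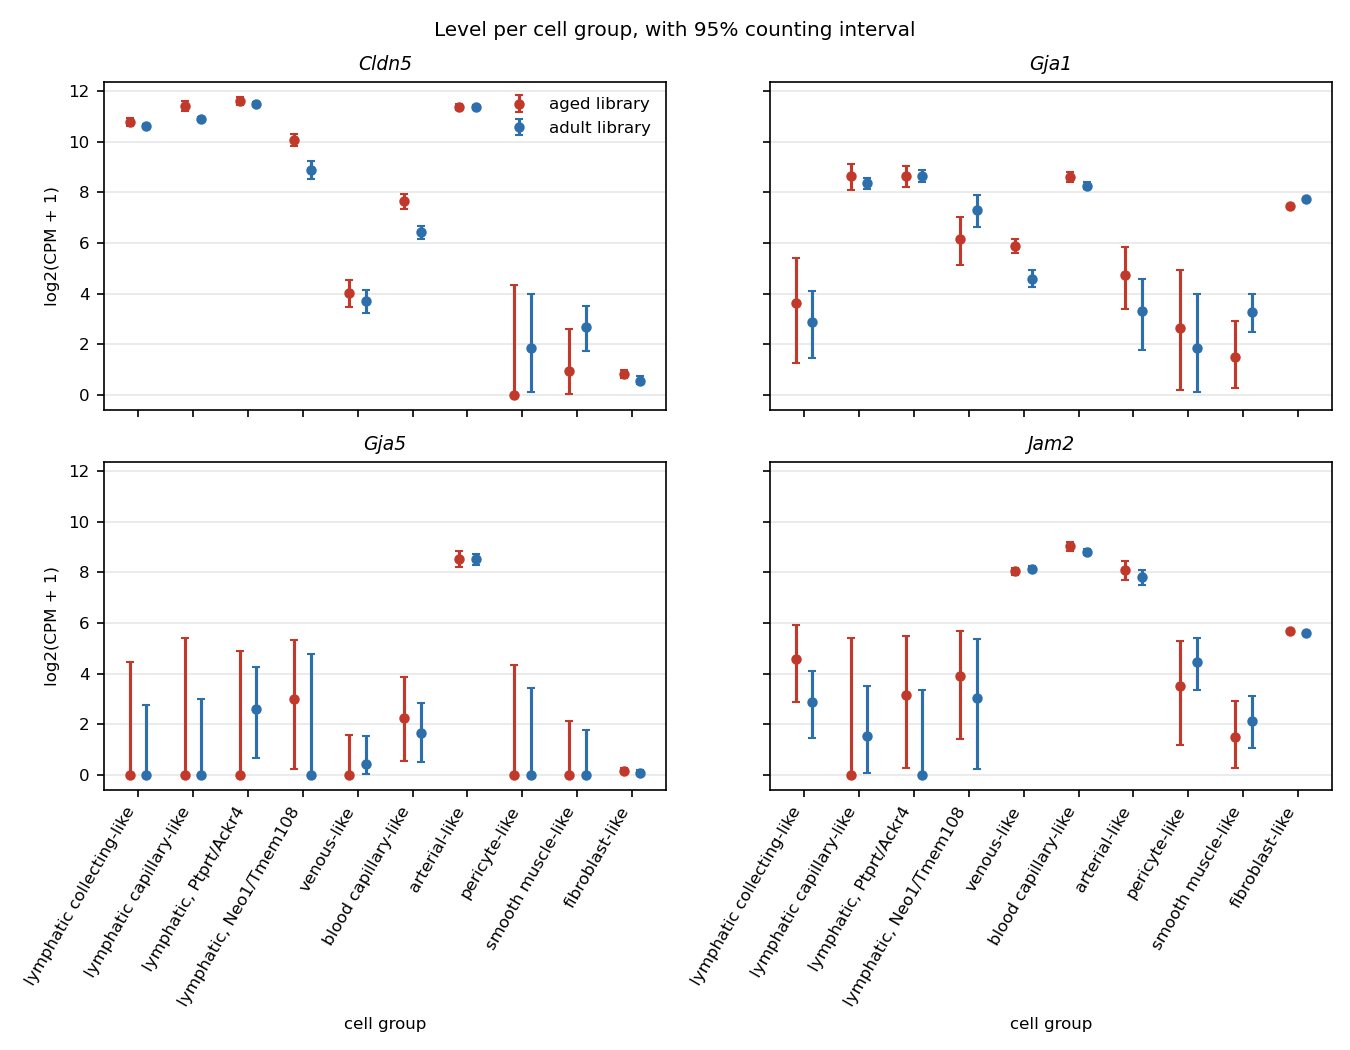
Levels of Cldn5, Gja1, Gja5 and Jam2 as log2(CPM + 1) in 10 cell groups, with 95% counting intervals, aged library (red) left of adult library (blue). Gja5 is high in arterial-like cells, at 371 and 363 CPM, Gja1 in both capillary-like groups and fibroblasts, and Jam2 in the blood subtypes.

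The gap junction genes took separate subtypes. Gja5, a connexin known from arterial endothelium and the conducting heart (chr3:96904693-97077416), was found almost entirely in arterial-like cells. They held 86 UMIs in the aged library, 371 CPM (297 to 458), and 164 in the adult library, 363 CPM (309 to 423), out of 89 and 170 UMIs in all endothelial-like cells. No smooth muscle-like cell had a Gja5 UMI, which allows up to 2.70 CPM in the aged and 1.997 CPM in the adult library. Among cells thinned to 4431 UMIs, 64.0% of aged (42.5 to 82.0%) and 72.9% of adult arterial-like cells (58.2 to 84.7%) had a Gja5 UMI. Fibroblast-like cells, which should lack it, had one in 0.0168% and 0.0345%. The arterial-like shares before thinning were 68.4% and 74.6%. The promoter window printed for Gja5 lies inside the annotated gene, before the RefSeq start.

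Gja1, a connexin of many tissues (chr10:56377330-56402513), was high in the capillary-like subtypes of both vessel systems and in the lymphatic group led by Ptprt and Ackr4. Lymphatic capillary-like cells held 395 CPM (275 to 550) in the aged and 329 CPM (282 to 381) in the adult library, and the group led by Ptprt and Ackr4 394 and 400 CPM. Cells led by Neo1 and Tmem108 lay lower, at 70.2 CPM (33.7 to 129) and 157 CPM (98.5 to 238). Blood capillary-like cells held 391 CPM (340 to 448) and 305 CPM (277 to 335). Collecting-like cells held 2 and 4 UMIs, or 11.5 CPM (1.39 to 41.4) and 6.30 CPM (1.72 to 16.1), and arterial-like cells 6 and 4 UMIs. On the log2(CPM + 1) scale, lymphatic capillary-like over collecting-like cells differed by 4.99 (3.15 to 8.21) in the aged and 5.50 (4.32 to 7.60) in the adult library. Among lymphatic capillary-like cells deep enough to be thinned, 5 of 9 aged cells had a Gja1 UMI, or 55.6% (21.2 to 86.3%). The adult share was 60.7% (47.3 to 72.9%). In collecting-like cells 1 of 20 aged cells had one, 5% (0.127 to 24.9%), and 1.25% of adult cells (0.0316 to 6.77%). Among the 21 aged lymphatic capillary-like cells, 5 cells held 29 of the 35 UMIs.

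Outside endothelium Gja1 was a fibroblast gene. Fibroblast-like cells held 174 CPM (171 to 177) in the aged and 214 CPM (211 to 217) in the adult library, more than the endothelial-like class as a whole, which stood at 133 and 132 CPM. Smooth muscle-like cells held 1.80 and 8.65 CPM, with 2 and 13 UMIs. Gja1 was set beside the fibroblast gene Dcn: fibroblast-like cells held 11.8 and 14.1 Gja1 UMIs per 1000 Dcn UMIs. Smooth muscle-like cells had 5.35 and 22.0 per 1000, below that ratio in the aged and above it in the adult library, on few UMIs. Venous-like cells had 207 and 54.8 per 1000, above the fibroblast ratio in both libraries. So were collecting-like cells at 35.1 and 28.8 and arterial-like cells at 375 and 87.0, both on few Gja1 UMIs. The part of free fibroblast RNA in the lowest values was not tested.

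The profile of each gene over 50 subtype-by-library profiles was set beside those of 7795 genes, and the closest ones outside the junction lists are named. These are descriptions without a test, since profiles of 1 library share its depth and free RNA. Cdh5 was most like Egfl7 (Pearson r = 0.99), Myct1 (r = 0.98) and Tie1 (r = 0.98), all 3 of them endothelial genes. Gja5 was most like the arterial semaphorin Sema3g (r = 0.96), followed by Mannr and Atp2b2 (r = 0.93 each). Cldn5 was most like Flt4, the lymphatic receptor of vascular endothelial growth factor C, and Cda (r = 0.93 each), then Tal1 (r = 0.93). Egfl7, Tie1, Sema3g and Flt4 are among the markers used to name the cell groups, so their matches are not independent of the naming. Esam was most like Tinagl1 (r = 0.95), F11r like Cracr2b (r = 0.94), Tjp1 like Tanc1 (r = 0.91) and Pecam1 like Ppp1r16b (r = 0.90). The closest genes to Gja1, Jam2 and Jam3 were less alike: S100a10 for Gja1 (r = 0.81), the drug efflux transporter Abcb1a for Jam2 (r = 0.80) and Rrad for Jam3 (r = 0.76).

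Fibroblast-like cells formed 14 clusters, of which 12 held at least 47 cells in each library, and the junction genes were unevenly spread over them. Pecam1 was concentrated in the cluster led by Rif1 and Dnah12, at 163 CPM in the aged and 174 CPM in the adult library, and in the cluster led by Pde4c and Rxfp1, at 73.2 and 103 CPM. Those clusters held 2.36% and 5.60% of the aged fibroblast-like cells but 28.2% and 22.4% of their Pecam1 UMIs. In the adult library they held 5.44% and 11.7% of the cells and 31.0% and 33.0% of the UMIs. The Rif1 cluster had no Cdh5 UMI in the aged library and 2 in the adult library, beside 319 and 830 Pecam1 UMIs. The adult cluster thus held 415 Pecam1 UMIs per Cdh5 UMI, a ratio that rests on 2 Cdh5 UMIs. Over all fibroblast-like cells the ratio was 26.3 in the aged and 48.7 in the adult library, against 2.26 and 2.08 in endothelial-like cells. Jam2 was highest in the cluster led by Dcpp1 and Dcpp2, at 127 and 124 CPM. Gja1 was lowest in the cluster led by Ccn2 and Fhl2, at 98.4 and 60.4 CPM, and reached 267 and 288 CPM in the cluster led by Enpp2 and Cxcl14.

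**Figure D3:**
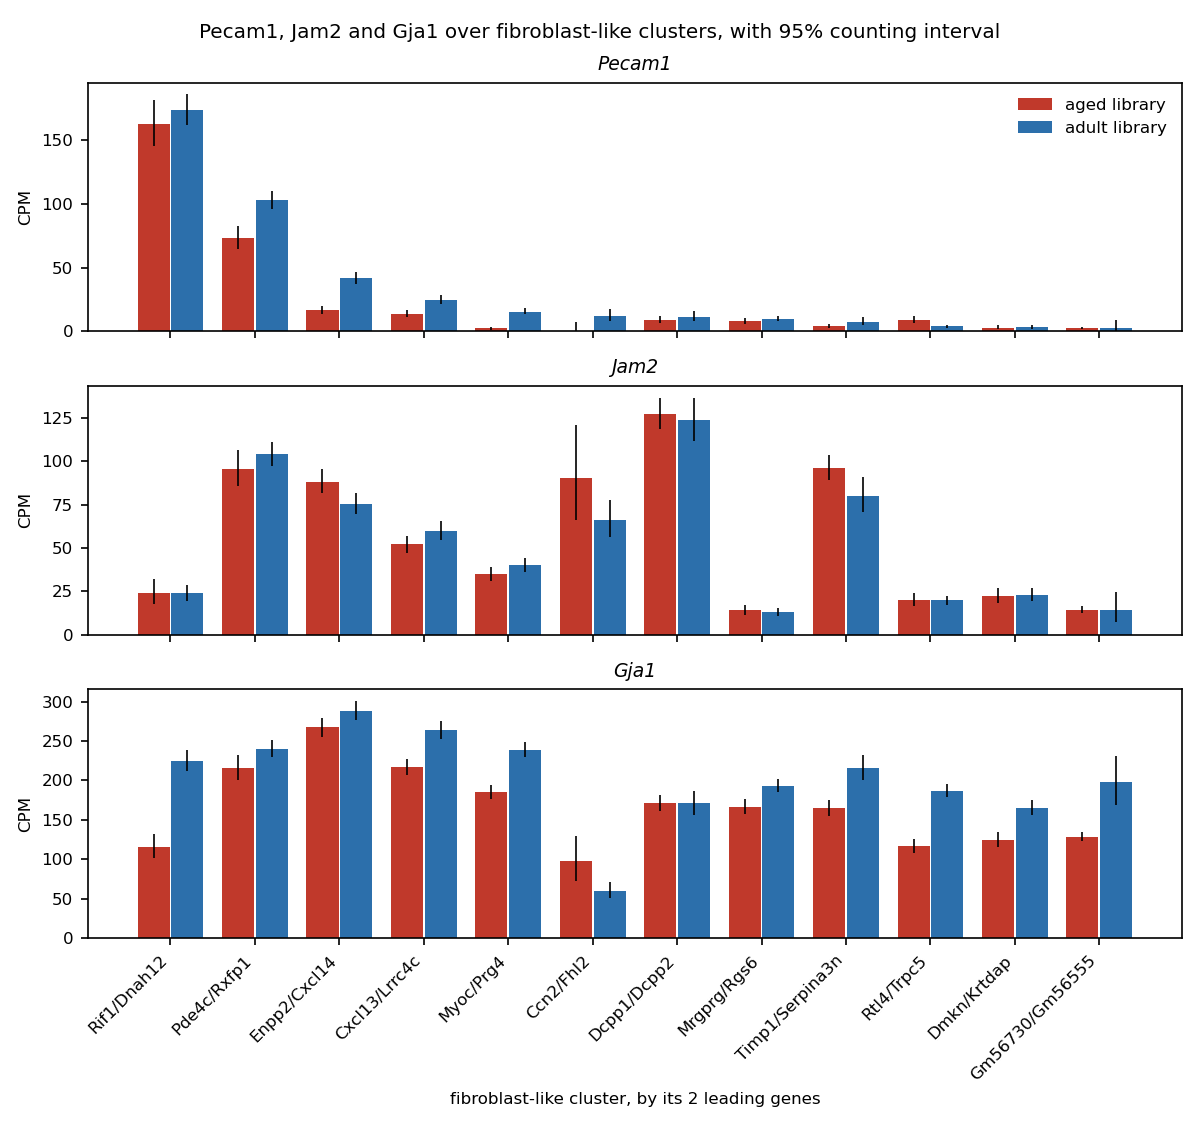
Pecam1, Jam2 and Gja1 in CPM over the 12 fibroblast-like clusters, ordered by adult Pecam1, with aged bars (red) left of adult bars (blue) and 95% counting intervals. Pecam1 reaches 163 and 174 CPM in the cluster led by Rif1 and Dnah12, while Gja1 is present in all 12 clusters.

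Between ages, most of the 10 genes differed by less than 1.5-fold within a class, on the log2(CPM + 1) ratio of aged over adult cells. In lymphatic endothelial-like cells 7 of the 10 were measured (a UMI in 10% of cells and 50 UMIs in all): Esam was higher by 1.5-fold or more, none was lower and 6 lay within. Of 6027 genes measured in that class, 7.63% were higher and 9.51% lower by that much. In blood endothelial-like cells Jam3 was lower and the other 8 measured genes lay within, beside 4.54% of 7229 genes higher and 5.04% lower. In smooth muscle-like cells all 3 measured genes lay within, beside 5.05% of 6396 genes higher and 11.4% lower. In fibroblast-like cells Pecam1 was lower and the other 4 lay within, beside 1.77% of 8725 genes higher and 3.78% lower. The median log2 ratio of the measured members was 0.12 in lymphatic, 0.18 in blood endothelial, 0.19 in muscle and −0.17 in fibroblast-like cells, against 0.03, 0.03, −0.04 and −0.05 over all measured genes. With 3 to 9 members measured per class, 1 member past the fold is not a result about the group of genes.

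**Figure D4:**
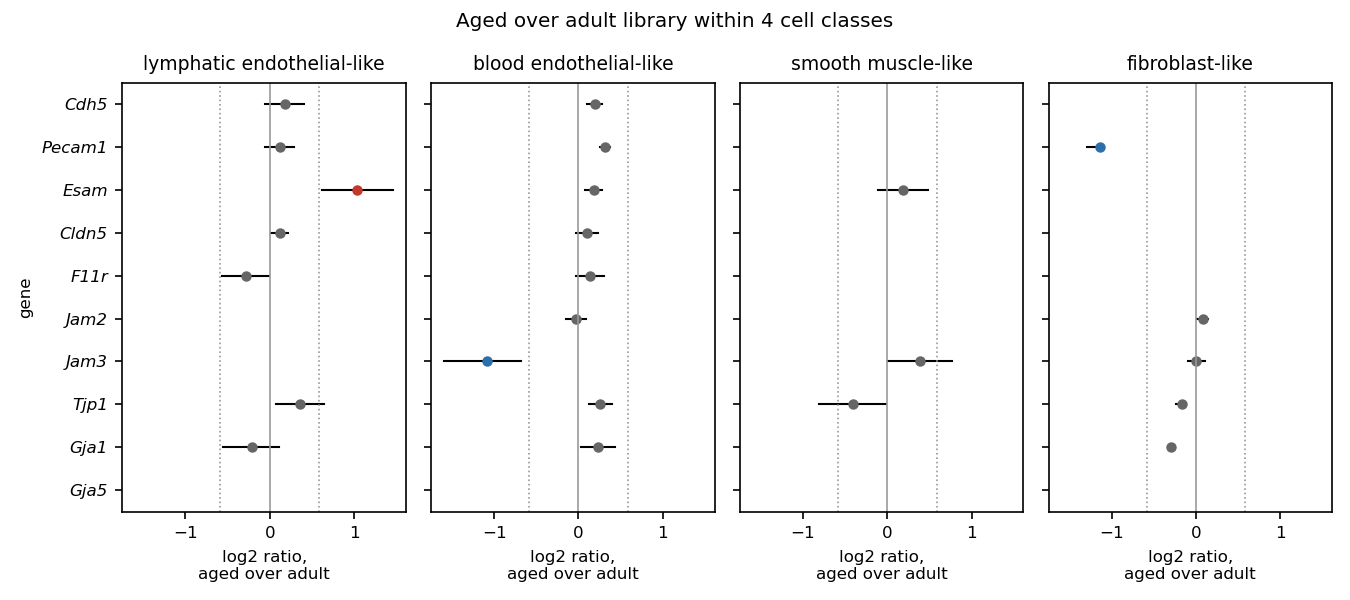
Log2 ratio of aged over adult CPM for the genes measured in each of 4 cell classes, with 95% counting intervals as black bars (these leave out the added 1 CPM). Dotted lines mark 1.5-fold, and points past them are red (higher in aged) or blue (lower in aged): Esam in lymphatic, Jam3 in blood endothelial and Pecam1 in fibroblast-like cells. Genes without a point were not measured in that class, which holds for Gja5 in all 4.

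Esam stood at 148 CPM in aged and 72.1 CPM in adult lymphatic endothelial-like cells, from 79 and 123 UMIs, a log2 ratio of 1.03 (0.62 to 1.46). The makeup of the class also differed between the libraries. The Esam-rich cells led by Neo1 and Tmem108 were 22.1% of aged and 6.20% of adult lymphatic cells. They held 58.2% and 38.2% of the Esam UMIs. Within that group the gene was at 323 CPM in aged and 336 CPM in adult cells. In the other 3 lymphatic subtypes the aged value was the higher one: 118 CPM (66.1 to 195) in aged and 55.0 CPM (34.5 to 83.3) in adult cells led by Ptprt and Ackr4, 80.2 and 58.3 CPM in collecting-like cells, and 45.2 and 31.9 CPM in capillary-like cells. The intervals of the 2 ages overlapped in each of the 3. With the 4 lymphatic subtypes weighted equally the log2 ratio was 0.23. The part of makeup and of level in the Esam ratio of the class was not tested. Cdh5, Pecam1 and Cldn5 in the same class had log2 ratios of 0.18 (−0.06 to 0.41), 0.12 (−0.06 to 0.29) and 0.12 (0.02 to 0.22). F11r and Gja1 were lower by point value, at −0.29 (−0.57 to −0.01) and −0.22 (−0.55 to 0.11), and Tjp1 was at 0.36 (0.07 to 0.64).

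Jam3 was at 19.3 CPM in aged and 42.1 CPM in adult blood endothelial-like cells, from 52 and 205 UMIs, a log2 ratio of −1.09 (−1.60 to −0.68). Blood capillary-like cells, which carry nearly all of it, were 19.3% of aged and 29.8% of adult blood endothelial-like cells and held 88.5% and 94.1% of the Jam3 UMIs. With subtypes weighted equally the ratio was −0.66. With all cells as deposited it was −0.40, less than 1.5-fold. That setting also counts the 6977 cells with an adult barcode as aged, which draws ratios toward 0. The part of makeup in the Jam3 ratio of the class was not tested. Within blood capillary-like cells Jam3 was at 86.5 CPM in aged and 137 CPM in adult cells, a log2 ratio of −0.66 (−1.16 to −0.19), beside 6.95% of 5600 genes higher and 9.27% lower by 1.5-fold there. With all cells as deposited that subtype ratio was −0.17 (−0.49 to 0.14). The remaining measured genes of the blood class had log2 ratios from −0.03 for Jam2 to 0.31 (0.26 to 0.37) for Pecam1.

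Pecam1 in fibroblast-like cells was at 14.4 CPM in aged and 32.9 CPM in adult cells, from 1133 and 2681 UMIs, a log2 ratio of −1.14 (−1.29 to −1.09). In the 5 clusters where it was measured the ratio was below 0 in all 5, with intervals below 0 in 4. It ran from −2.34 (−3.53 to −2.10) in the cluster led by Myoc and Prg4 to −0.10 (−0.29 to 0.09) in the Pecam1-rich cluster led by Rif1 and Dnah12. Clusters weighted equally gave −0.44. All cells as deposited, where cells with an adult barcode also count as aged, gave −0.68. The part of cluster makeup in the Pecam1 ratio was not tested. With cells thinned to equal depth Pecam1 no longer reached 10% of fibroblast-like cells, so it was not measured under that setting. Gja1 in the same cells stood at 174 CPM in aged and 214 CPM in adult cells, a log2 ratio of −0.30 (−0.33 to −0.27), short of 1.5-fold. The sign was shared by most clusters: 10 of 12 fibroblast clusters had Gja1 lower in aged cells with intervals below 0, and the cluster led by Ccn2 and Fhl2 had it higher, at 0.69 (0.21 to 1.18).

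Within single endothelial subtypes, Gja1 in venous-like cells was past 1.5-fold, at 57.9 CPM (47.6 to 69.8) in aged and 23.1 CPM (17.9 to 29.3) in adult cells. The log2 ratio was 1.29 (0.88 to 1.78), beside 7.5% of 7058 genes higher and 5.78% lower by 1.5-fold in venous-like cells. It was 1.20 in female and 1.79 in male cells, 1.16 with cells thinned, and 1.503 without the 5 cells per library with most Gja1 UMIs. With all cells as deposited, where cells with an adult barcode also count as aged, it was 0.88. The fibroblast gene Dcn stood at 280 CPM in aged and 421 CPM in adult venous-like cells. The part of free fibroblast RNA in their Gja1 values was not tested. Cldn5 in blood capillary-like cells had a log2 ratio of 1.23 (0.85 to 1.63), but it rested on few cells, and in male cells alone it was −0.49 (−1.61 to 0.48). Gja5 in arterial-like cells had a ratio of 0.03 (−0.36 to 0.42) and Cldn5 there one of 0.00 (−0.14 to 0.14). Cldn5 in lymphatic capillary-like cells was at 0.52 (0.32 to 0.73), within 1.5-fold, and Pecam1 in venous-like cells at 0.50 (0.43 to 0.57).

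Of the 51 other junction genes, 24 were measured in lymphatic endothelial-like cells, with 3 higher, 4 lower and a median log2 ratio of −0.01. The 3 with the highest ratios were Cldn11, a claudin of myelin and Sertoli cells, at 178 CPM in aged and 81.4 CPM in adult cells (log2 ratio 1.12, 0.74 to 1.52), the polarity scaffold Pard3 (0.66) and the cadherin Cdh13 (0.65). The 3 lowest were the polarity genes Patj (−1.44, from 6 and 55 UMIs) and Pard6g (201 CPM in aged and 383 CPM in adult cells, −0.93), and Robo4, whose interval of −1.92 to 0.21 includes 0. In blood endothelial-like cells 25 were measured, 3 of them higher and 2 lower. The higher ones included the connexin gene Gjc1 at 73.4 CPM in aged and 39.3 CPM in adult cells (0.89) and Cdh13 at 1415 and 865 CPM (0.71), and the lower ones were Mcam (−0.69) and Nectin2 (−0.68). Nectin1 was next lowest, at −0.27 (−0.91 to 0.31). In smooth muscle-like cells 16 were measured, with the connexin gene Gja4 at 206 CPM in aged and 101 CPM in adult cells (1.02, 0.73 to 1.33) and Pvr (0.70) higher. Nectin3 (−0.86) and Cdh13 (−0.81) were lower, while Cd99l2 (0.29) and Ctnnd1 (−0.41) lay within. In fibroblast-like cells 20 were measured, with none higher and 1 lower. The lower one, named after its value was seen, was the claudin gene Cldn3 at 14.2 CPM in aged and 25.6 CPM in adult cells (−0.81, −0.96 to −0.75).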

How the data were processed

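RNA of single cells was measured in 2 libraries, 1 per age, each from 6 pooled mice. The values deposited by the authors are on a natural log scale: each is the log of 1 plus UMIs brought to a total of 10000 per cell, which was read from the numbers. The tables were made with Seurat 5.0.3, per the submitters' processing notes. Those notes list GRCm39 and mm10 with no role; the sources used here give no aligner and no cell filter. UMI counts were recovered from the deposited values, 100% of which came out whole within 0.01. No deposited column was left unused (0).

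The 14300 distinct cells were clustered on 2000 variable genes without the 10 members, the other junction genes and sex-linked genes (30 components, numpy 2.4.6; 15 neighbours, scikit-learn 1.9.0; Leiden, resolution 1, subclusters 0.5, igraph 0.11.9) and named from markers. An endothelial or muscle cluster needed 3 of its markers in 10% of its cells and a mean log2 fold of 1. Fibroblast-like clusters were remaining ones with 3 fibroblast markers in 50% of their cells, without a fold rule. Endothelial subclusters were called lymphatic or blood by the marker list with the larger mean fold. Doublets were not removed: Scrublet (scanpy 1.11.5) marked 1 aged cell and 0 adult cells, and whether it worked was not tested. Genes per cell ran from 1002 to 5987 in the aged table and from 1007 to 5997 in the adult table. Muscle clusters with fibroblast genes were kept out of the classes. The members, gene lists and markers were chosen with earlier results of these data known. Named genes are all members, the 3 highest and 3 lowest other junction genes in the lymphatic, blood endothelial and smooth muscle classes, and the most similar genes by Pearson correlation; 1 gene that the rule names is not reported here. Ratios were taken on log2(CPM + 1), with exact conditional binomial intervals without the added 1 CPM (scipy 1.17.1), so a ratio of a low gene can lie outside its interval. Shares carry Clopper-Pearson intervals, and a count of 0 allows 3 counts. The scripts were tested on simulated data. Gene positions are GENCODE M21 on GRCm38. Alternatives were another pseudocount, no filter, means over cells, thinning, equal subtype weights, and each sex (from sex-linked genes). Others left out mixed cells or cells with most UMIs, or took all cells as deposited. The last counts the 6977 cells with an adult barcode as aged too, which draws ratios toward 0.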

Additional observations from a re-analysis of the deposited data

How the results depend on the processing

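No paired analysis was possible because each age has 1 library and the labels give no shared replicate numbers. Of the counts of members past a fold, 59 values stayed within 1.5 times the main count. The blood endothelial-like count of 1 became 2 with male cells only. It became 0 with all cells as deposited, where cells with an adult barcode also count as aged. The smooth muscle-like count of 0 became 1 with female cells only, 1 with male cells only and 5 with no filter on low values. The lymphatic count of 1 became 2 with no filter and 0 with subclusters weighted equally. The fibroblast-like count of 1 became 0 with cells thinned and 0 with subclusters weighted equally. The lymphatic over blood and endothelial over fibroblast counts, 4 and 7, stayed within 1.5 times under the alternatives run. The Esam ratio in lymphatic cells kept its sign in 12 of 12 alternatives (0.23 to 1.22), that of Jam3 in blood endothelial-like cells in 12 of 12 (−1.33 to −0.40) and that of Pecam1 in fibroblast-like cells in 11 of 11 (−1.18 to −0.44). Of all values for single members, 271 stayed within the counting interval of the main value, 38 moved and 1 reversed: Cldn5 in blood capillary-like cells was −0.49 in male cells only, and the cause was not tested. The choice to leave out the cells with most UMIs was made after seeing the data. Depth limits the smaller subtypes, such as the 3 lymphatic ones with 21 aged cells each. An alternative without doublets was not run, because the caller marked 1 cell.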
